A study of Mus musculus with 18 samples.

Results

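Group 2 innate lymphoid cells (ILC2) of mouse back skin were selected on transcripts counted in single cells, and 368 of 47251 kept cells met the selection. A kept cell had 200 or more genes, 500 or more unique molecular identifiers (UMIs, the tags that count single mRNA molecules) and no more than 10% of them mitochondrial. A selected cell carried Ptprc, the pan-leukocyte gene for CD45, no UMI of the T cell receptor genes Cd3d, Cd3e and Cd3g, and Gata3, the transcription factor of type 2 lymphocytes. It also carried Il7r or Thy1, which mark lymphocytes, no UMI of the mast cell proteases Cpa3 and Mcpt4, and none of the natural killer receptor gene Ncr1. Cells with 5 or more UMIs of the MHC class II genes H2-Aa, H2-Ab1 and H2-Eb1, or with 0.3% or more of their UMIs from the keratin genes Krt5 and Krt14, were left out. The 368 cells were drawn from 14698 Ptprc-positive cells, and 3270 Ptprc-positive cells carried a Cd3 transcript.

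ILC2 are tissue-resident lymphocytes that lack a rearranged antigen receptor. They answer alarm signals of damaged epithelium and stroma, among them IL-33 (through the receptor chain Il1rl1, also called ST2), TSLP (through Crlf2), IL-25 (through Il17rb) and, in skin, IL-18 (through Il18r1). They secrete the type 2 cytokines IL-5 and IL-13, which act on eosinophils, epithelium and dendritic cells, and amphiregulin (Areg), a growth factor for epithelium and stroma.

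All mice underwent the same surgery, in which the skin of the back was cut near the tail and loosened from below up to the neck. In the expanded arm a hydrogel expander was then left under the skin to stretch it, whereas control mice got no expander. Living cells of dissociated skin were sequenced by a droplet method that reads the 3′ ends of mRNA, on day 1 in 2 sequencing rounds, on day 2 in 2 rounds and on day 4 in 1 round. Each day and round gave 1 control and 1 expanded library of pooled mice, 10 libraries in all, and 8 of them carried antibody barcodes (hashtags) that return cells to single mice, 14 per arm. The strain and age of the mice are not given in the sources used here. Libraries held from 1927 to 8312 kept cells and from 17726739 to 75470722 gene UMIs, and pairs of libraries shared between 0 and 18 cell barcodes. The selected cells had a median of 5011 UMIs and 1782.5 genes each. Their median depth was higher in the expanded library of every pair, at 7468 against 5375 UMIs on day 1 in round 1, 5129.5 against 4068 on day 1 in round 2, 9534 against 3750 on day 2 in round 1, 6070 against 4676 on day 2 in round 2, and 6609 against 3607 on day 4.

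The selection rests on few molecules per cell. Of the 368 cells, 132 had exactly 1 UMI of Gata3. Il7r was present in 344 cells (93.5%) and Thy1 in 184 (50.0%). Failing the Cd3 criterion alone kept out 819 cells, the Gata3-positive Cd3-positive T cells that serve as the nearest comparison here. Failing the Gata3 criterion alone kept out 1787 cells, the most of any criterion, and failing the Ncr1 criterion alone kept out 52 cells. Of the cells next to the MHC class II limit, 8 inside it had 4 UMIs and 2 outside it had 5, while 2 cells stood on either side of the keratin limit. Scrublet called 13 of the cells doublets and 10 carried more than 1 hashtag, which together concerned 20 cells. These were kept here.

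The products that name the cell type were in this population, and they were not part of the selection. Il5 (ENSMUSG00000036117, chr11:53720794-53725106, plus strand, GRCm38) had a UMI in 137 of the 368 cells (37.2%). Il13 (ENSMUSG00000020383, chr11:53631324-53634702, minus strand) had a UMI in 81 (22.0%). The genes lie near each other in the type 2 cytokine locus, and their upstream sequences are shown because these transcripts carry the label of the cells. Each sequence is the 250 bases before the gene's start in RefSeq (GRCm38.p6), read 5′ to 3′ on the gene's strand, with capitals at a match to the GATA factor motif. The motif was searched on both strands as AGATAA, in a second form that starts with another base as TGATAA, and in versions of these forms with a different last base as AGATAG for the first and likewise as TGATAG for the second.
Il5 promoter, chr11:53720544-53720793, plus strand: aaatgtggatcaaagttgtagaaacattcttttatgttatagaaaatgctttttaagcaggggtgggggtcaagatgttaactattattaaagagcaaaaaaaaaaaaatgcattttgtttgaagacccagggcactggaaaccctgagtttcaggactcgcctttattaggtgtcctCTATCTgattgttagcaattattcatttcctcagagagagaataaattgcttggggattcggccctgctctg
Il13 promoter, chr11:53634703-53634952, minus strand: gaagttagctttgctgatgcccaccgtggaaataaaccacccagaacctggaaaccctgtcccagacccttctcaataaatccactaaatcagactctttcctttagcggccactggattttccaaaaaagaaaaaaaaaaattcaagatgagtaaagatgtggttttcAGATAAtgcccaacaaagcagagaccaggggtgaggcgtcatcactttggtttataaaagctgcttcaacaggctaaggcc
Each promoter held 1 match, whose first base stood 72 bases upstream of the start in Il5, on the opposite strand, and 81 bases upstream in Il13, on the gene's strand. Such a match occurred in 8718 of 32851 promoters of this length (26.5%), so it is a description of these letters and not evidence of binding.

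The label was checked against these and other transcripts, with 3 classes of cells beside it. These were the 819 Gata3-positive Cd3-positive cells (median 4839 UMIs), 133 Cd3-negative cells with Ncr1 (median 6485 UMIs), which hold natural killer and group 1 innate cells, and 20868 Ptprc-negative cells with collagen and decorin transcripts (median 9777.5 UMIs), called fibroblasts here. The fibroblasts give the level of free RNA, since they should lack lymphocyte products. Each cell was also thinned to 2000 UMIs to even out depth, which left 348 of the selected cells, 793 of the T cells, 132 of the Ncr1-positive cells and 19811 fibroblasts. Il5 was detected in 29.3% of the thinned selected cells, 5.93% of the T cells, 0.758% of the Ncr1-positive cells and 0.0151% of the fibroblasts. Il13 was detected in 13.2%, 8.32%, 3.03% and 0.0505% of the same classes. Both cytokine genes thus stood far over the fibroblast level, and Il5 separated the selected cells from the T cells more than Il13 did in these shares. Icos, a costimulatory receptor, was detected in 75.0%, 61.8%, 12.1% and 0.187%. Rora, a transcription factor required for ILC2 development, reached 84.2%, 69.6%, 51.5% and 38.4%, and its share in fibroblasts shows that it does not mark lymphocytes alone. Areg reached 31.3%, 23.1%, 25.0% and 0.803%, so it was a product of each lymphocyte class.

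Other textbook ILC2 markers were scarce. Il1rl1 had a UMI in 65 of the 368 cells (17.7%), against 25.0% of the Gata3-positive T cells, and Klrg1, an inhibitory receptor of activated ILC2, in 18 (4.89%) against 11.1%. Il17rb was found in 55 cells (14.9%) and Crlf2 in 95 (25.8%). The marker genes Hs3st1 (2.72%), Gfi1 (2.17%), Arg1 (0.815%) and Ptgdr2 (0.543%) were near absence. No cell had a UMI of Nmur1, the receptor of the neuropeptide neuromedin U, which allows a share of up to 0.815% of cells with a UMI at this depth. Il18r1, by contrast, was found in 246 cells (66.8%), and Kit, the stem cell factor receptor that mast cells and some innate lymphoid cells carry, in 256 (69.6%). Of the 8 mast cell markers, 4 were at 0 UMIs in all 368 cells (Tpsb2, Tpsab1, Fcer1a and Ms4a2), Cma1, Hdc and Gata2 were found in 2, 5 and 4 cells, and Kit was common. The B cell list had 4 of 6 genes at 0, Cd79a, Ms4a1 and Pax5 among them, with Cd79b in 4 cells and Ebf1 in 11. The basophil list had 4 of 6 at 0, with Mcpt8 in 3 cells. The group 1 regulators Tbx21 (10.6%) and Eomes (0.815%) and the group 3 cytokine Il22 (1.09%) were found in few cells. Other natural killer and group 1 markers were more common, with Nkg7, a cytotoxic granule gene, in 128 cells (34.8%), the chemokine gene Xcl1 in 61 (16.6%) and Klrb1c in 35 (9.51%), against 94.0%, 90.2% and 39.1% of the Ncr1-positive cells. The group 3 list was uneven, with 0 to 45.7 CPM (counts per 1000000 UMIs of the selected cells summed in a library) in the control libraries and up to 437 CPM in the expanded library of day 2 in round 2, where the cytokine gene Il17a made up 407. Mki67, a proliferation gene, was found in 10.3%.

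Transcripts of T cell receptor constant regions were common in the selected cells. Some such transcript was present in 325 of 368 cells (88.3%), led by Trbc1 in 263 (71.5%), which the Gata3-positive T cells carried in 61.8% and the Ncr1-positive cells in 88.0%. Trac, the alpha chain, separated the classes, with 48 selected cells (13.0%) against 47.7% of T cells and 3.01% of Ncr1-positive cells. Foxp3, which defines regulatory T cells, was present in 14 selected cells (3.80%) against 18.3% of the T cells, and Cd4 was present in 7 and Cd8a in 1. Innate lymphoid cells can transcribe unrearranged receptor loci, so Trbc1 alone does not name a T cell. Cells with a UMI of Trac, Cd4, Cd5, Cd6, Cd8a, Foxp3, Tcrg-C1 or Tcrg-C2 were unevenly spread. Without them, 4 of 12 selected cells remained in the expanded library of day 2 in round 2 and 44 of 54 in its control. In the other pairs 18 of 23, 93 of 122, 7 of 9 and 14 of 21 remained in expanded libraries. Their controls kept 22 of 26, 55 of 73, 12 of 15 and 11 of 13. The cells are called ILC2-like below, with the reservation that Il1rl1, Klrg1, Arg1 and Hs3st1 were low. Trac was found in 13.0%, Foxp3 in 3.80% and Nkg7 in 34.8% of them, and most of those in that expanded library of day 2 carried a T cell transcript.

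**Figure D1:**
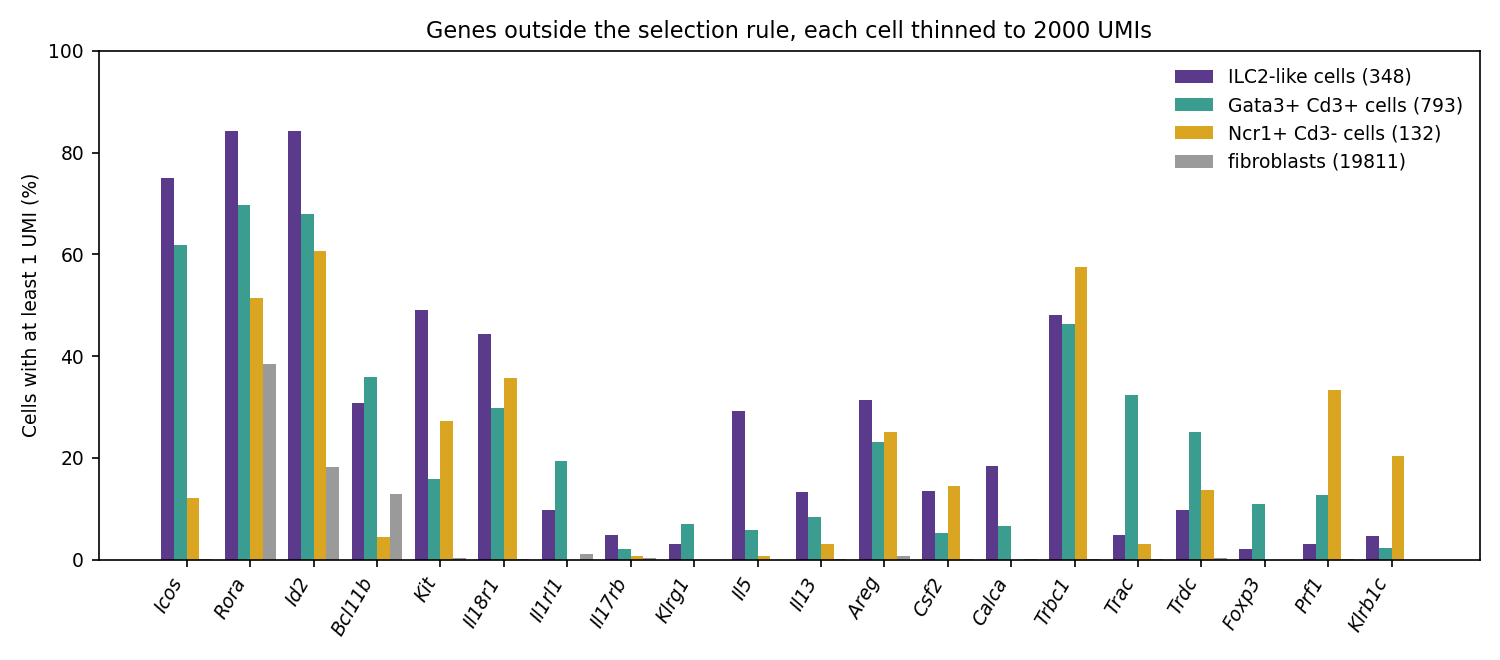
Share of cells with at least 1 UMI of each gene after thinning to 2000 UMIs (percent, vertical axis), for the 348 ILC2-like cells, 793 Gata3-positive Cd3-positive cells, 132 Ncr1-positive Cd3-negative cells and 19811 fibroblasts. Il5 stands at 29.3%, 5.93%, 0.758% and 0.0151% in that order, while Areg and Rora reach every lymphocyte class.

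Within the ILC2-like cells the transcripts were unevenly spread. These shares are over the 348 thinned cells, which come from few mice and are given as a description with no test. Il13 was detected in 30 of 102 cells with Il5 (29.4%) and in 16 of 246 cells without it (6.50%). Areg was detected in 45 of the 102 Il5-positive cells (44.1%) and 64 of the 246 others (26.0%), so both Il13 and Areg were found more often in cells with Il5. Cells with Il1rl1 formed a different picture: 10 of 34 had Klrg1 (29.4%), against 1 of the 314 without Il1rl1 (0.318%). Il18r1 was found in 7 of those 34 cells (20.6%) and in 147 of the 314 others (46.8%). Regulatory T cell genes went with Il1rl1 too, Foxp3 in 6 of 34 cells (17.6%) against 1 of 314 and Ctla4 in 10 of 34 against 25 of 314 (7.96%). None of the 7 thinned cells with Foxp3 had Il5, Il13 or Kit, and all 7 had Icos and Ctla4. Of the 7, 6 had Il1rl1.

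The share of ILC2-like cells in the skin's leukocytes moved in both directions between arms. They made up 1.87% of the Ptprc-positive cells in the control library of day 1 in round 1 (26 of 1393 cells, 95% Wilson interval 1.28% to 2.72%) and 3.74% in the expanded library (23 of 615, 2.50% to 5.55%). On day 1 in round 2 the shares were 3.63% (73 of 2011, 2.90% to 4.54%) and 6.25% (122 of 1951, 5.26% to 7.42%). On day 2 in round 1 they were 2.29% (15 of 654, 1.39% to 3.75%) and 0.463% (9 of 1944, 0.244% to 0.878%). On day 2 in round 2 they were 2.82% (54 of 1918, 2.16% to 3.66%) and 1.43% (12 of 838, 0.821% to 2.49%). On day 4 they were 0.642% (13 of 2024, 0.376% to 1.10%) and 1.56% (21 of 1350, 1.02% to 2.37%). The expanded library was above its control in both pairs of day 1 and on day 4, and below it in both pairs of day 2. Intervals cover counting error only, and the arms overlapped across libraries. The mean was 2.25% ± 1.11 in control and 2.69% ± 2.33 in expanded libraries (SD, n = 5 each), a difference of 0.44 percentage points (exact two-sided permutation test, p = 0.746, adjusted p = 0.746 over 3 denominators, smallest possible p 0.00794).

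Other denominators gave no difference past the threshold. Among all kept cells the mean share was 0.622% ± 0.314 in control and 0.871% ± 0.699 in expanded libraries (SD, n = 5 each). The exact permutation test gave p = 0.603 (adjusted p = 0.746), and the expanded library was higher in 3 of 5 pairs. The share of kept cells was highest in the expanded library of day 1 in round 2, at 2.08%, and without it the sign of the difference turned, from 0.25 to -0.0516 percentage points for kept cells and from 0.44 to -0.452 for leukocytes. Per 100 Cd3-positive cells there were 12.1 ± 4.95 ILC2-like cells in control and 9.01 ± 4.74 in expanded libraries (SD, n = 5 each). The exact permutation test gave p = 0.349 (adjusted p = 0.746). In that ratio the expanded library was higher in 1 of 5 pairs, day 4, with 7.19 against 4.61. A share falls when other leukocytes enter the skin, so more of them and fewer ILC2-like cells cannot be told apart.

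Hashtags returned 308 of 319 ILC2-like cells of the hashed libraries to single mice. Over 14 mice per arm the share of leukocytes was 2.48% ± 2.02 in control mice (lowest 0.358%, median 2.27%, highest 7.33%) and 2.85% ± 2.78 in expanded mice (SD; lowest 0%, median 1.64%, highest 8.18%). The arms overlapped, and the difference was 0.37 percentage points (two-sided permutation test within day and round, p = 0.580). On day 1 in round 2 the control mice had 3.13%, 3.72% and 7.33% and the expanded mice 5.93%, 8.18% and 6.34% (exact permutation p = 0.3, adjusted p = 0.4, smallest possible p 0.1). On day 2 in round 1 the control mice had 3.75%, 2.30% and 1.59% and the expanded mice 0%, 0.666% and 0.808%, without overlap (exact permutation p = 0.1, the smallest possible, adjusted p = 0.2). On day 2 in round 2 the mice overlapped, with 0.473%, 2.61%, 2.24% and 5.07% in control and 0%, 0.771%, 3.08% and 6.58% in expanded mice (exact permutation p = 1.00). The mean of the mice in that round was 2.60% in control and 2.61% in expanded mice, whereas the pooled libraries had 2.82% and 1.43%. Day 4 gave 1.20%, 0.381%, 0.358% and 0.496% in control and 0.980%, 1.41%, 3.25% and 1.86% in expanded mice, with 1 control mouse inside the expanded range (exact permutation p = 0.0571, adjusted p = 0.2, smallest possible p 0.0286).

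The difference between arms on day 1 minus that on day 2 was 2.96 percentage points over the mice (permutation test, p = 0.132, adjusted p = 0.265 over the share and the ratio to Cd3-positive cells). Per 100 Cd3-positive cells of a mouse the day difference was 2.81 (permutation p = 0.559). The opposite directions of day 1 and day 2 seen in the libraries did not pass the threshold over the mice. In the expanded library of day 1 in round 2, 1 mouse gave 102 of the 119 assigned ILC2-like cells (85.7%), and 2 expanded mice of day 2 gave none. A count of 0 among 637 leukocytes allows a share of up to 0.471% in the first of these mice, and 0 among 185 allows up to 1.62% in the other.

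**Figure D2:**
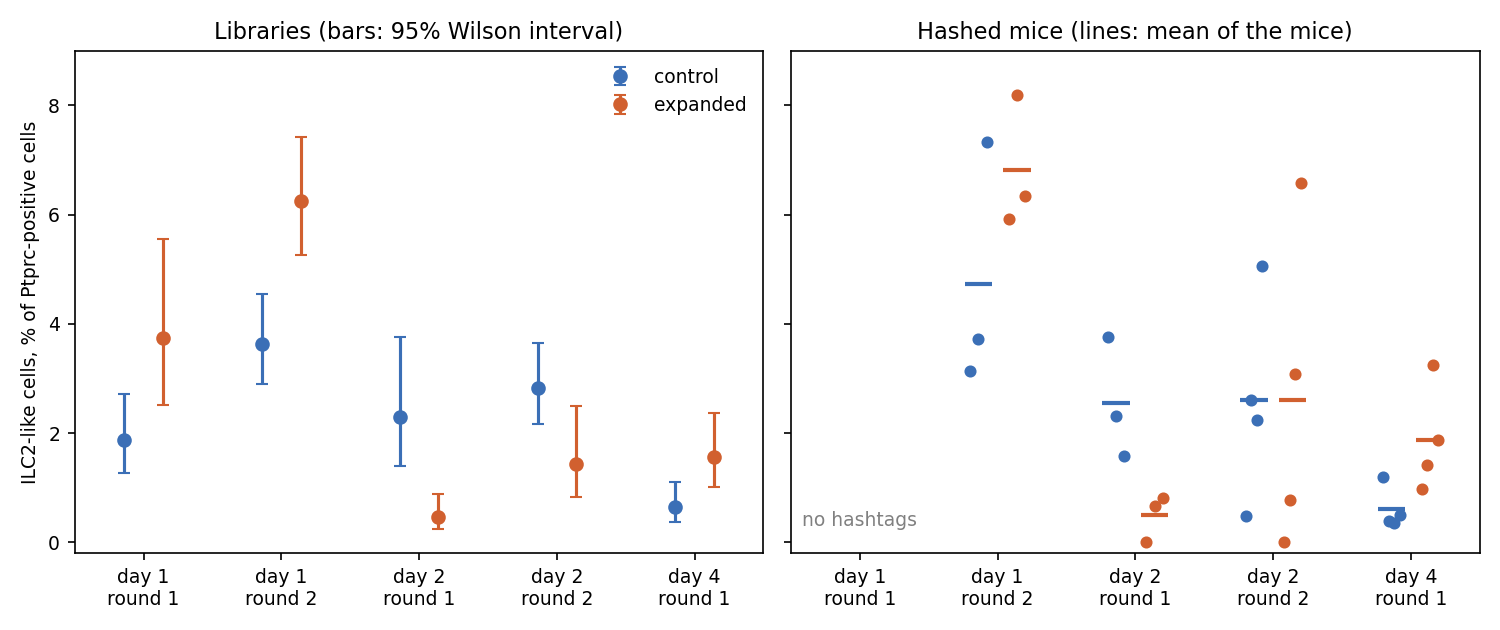
ILC2-like cells as a percentage of Ptprc-positive cells, by library with the 95% Wilson interval (left) and by hashed mouse with the mean of each arm as a line (right), for each day and sequencing round. The expanded libraries lie above control on day 1 (3.74% against 1.87% and 6.25% against 3.63%) and below it on day 2, and the mice overlap in 3 of the 4 hashed pairs of libraries.

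Amphiregulin was the effector gene whose share of positive cells, after thinning, differed between arms in the test of 4 genes. After thinning to 2000 UMIs, Areg was detected in 34.6% and 32.9% of ILC2-like cells in the control libraries of day 1, 41.7% and 39.6% in those of day 2 and 50.0% in that of day 4. In the expanded libraries it was detected in 30.4% (7 of 23 cells) and 28.2% (33 of 117) on day 1. The shares were 20% (2 of 10) on day 2 in round 2 and 9.52% (2 of 21) on day 4. All of these shares come from 1 random draw of UMIs, and several rest on few positive cells. Every one of these 4 expanded libraries lay below all 5 controls, and the means were 39.7% ± 6.76 (SD, n = 5) and 22.0% ± 9.47 (SD, n = 4), a difference of -17.7 percentage points (exact permutation p = 0.00794, the smallest possible, adjusted p = 0.0317 over the 4 genes). The expanded library of day 2 in round 1 had only 9 ILC2-like cells and fell under the minimum of 10. With labels exchanged only within the 4 complete pairs, Areg was lower in 4 of 4 by a mean of -17.2 points, and the exact permutation p was 0.125, the smallest that 16 arrangements allow, so no call is possible when the pairing is kept. With the library of 9 cells included, at 33.3%, the difference was -15.4 points and the adjusted p was 0.0635. Without thinning, when the deeper expanded cells keep all their UMIs, the mean shares were 42.1% and 36.1% (exact permutation test, adjusted p = 0.413). The arms then overlapped, and the expanded library of day 1 in round 1, at 52.2%, lay above the highest control library, at 50.0%. With each library left out the difference ran from -20.5 to -13.5 points, and its adjusted p from 0.0381 to 0.143, under 0.05 only without the control library of day 4. Leaving out a library also leaves fewer arrangements of the labels.

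The type 2 cytokine genes had lower mean shares in the expanded libraries but did not pass. Il5 was detected in 34.6%, 35.7%, 41.7%, 31.3% and 25.0% of thinned cells in the control libraries (day 1 rounds 1 and 2, day 2 rounds 1 and 2, day 4) and in 4.35%, 29.9%, 30.0% and 23.8% in the expanded libraries of the same order without day 2 in round 1. The arms overlapped, and the means were 33.6% ± 6.12 (n = 5) and 22.0% ± 12.1 (SD, n = 4), with p = 0.0635 in the exact permutation test and an adjusted p of 0.127. Il13 averaged 16.6% and 10.6% (exact permutation p = 0.159, adjusted p = 0.212). Il1rl1 averaged 8.86% and 8.63% (exact permutation p = 0.944), with expanded libraries from 0% to 20%.

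UMIs of the ILC2-like cells were then summed per library and the arms compared over all genes, with 5 control and 4 expanded libraries of at least 10 such cells. Levels below are CPM of these summed cells. Among 2782 genes outside the selection, none passed an adjusted p of 0.05 in edgeR's quasi-likelihood test (percent called 0), and DESeq2 also called none. At an unadjusted p under 0.05, 53 genes were higher and 101 lower in the expanded libraries in edgeR. With a block for each pair of libraries, 7 genes passed, all lower in the expanded libraries: Xcl1 (log2 fold change -1.99, edgeR adjusted p = 0.0392), the metallothionein gene Mt1, and Col1a1, Col1a2, Col3a1, Dcn and Sparc, which fibroblasts express. Without the expanded library of day 1 in round 2, 18 genes passed, all lower and mostly fibroblast transcripts. In 43 of the 2782 genes (1.55%) the libraries of the arms did not overlap. Of the 27 identity and effector genes tested, Areg and Lmo4 were in that group.

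Areg (ENSMUSG00000029378, chr5:91139599-91148432, plus strand) stood at 851 and 691 CPM in the control libraries of day 1, 663 and 556 on day 2 and 1189 on day 4. It stood at 435 and 546 CPM in the expanded libraries of day 1, 287 on day 2 in round 2 and 140 on day 4, and at 504 in the library with 9 cells. It was lower in the expanded library of 4 of 4 pairs, with a log2 fold change of -1.31 ± 0.34 (SE; edgeR unadjusted p = 0.00229, adjusted p = 0.492). In the Gata3-positive Cd3-positive T cells of the same 4 pairs Areg was also lower in each expanded library, at 640 against 289 and 615 against 353 CPM on day 1, 656 against 607 on day 2 in round 2 and 588 against 321 on day 4 (control first, arms not tested in these cells). Il5 stood at 473, 556, 292, 479 and 184 CPM in the control libraries by day and round, and at 39.5 and 232 in the expanded libraries of day 1, 468 on day 2 in round 2 and 111 on day 4. It was lower in 4 of 4 pairs, nearly level in that of day 2 (479 and 468), and its log2 fold change was -1.03 ± 0.47 (edgeR adjusted p = 0.825). Il13 stood at 47.9, 102, 66.3, 320 and 302 CPM in control and 33.9, 63.3, 166 and 199 in the expanded libraries (log2 fold change -0.58 ± 0.40, edgeR adjusted p = 0.896). The arms overlapped for both cytokine genes.

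Of the 27 effector genes listed, 10 could be tested. Of these, 7 had a negative and 3 a positive log2 fold change, with a median of -0.78 beside 0.00 over all genes, and none passed adjustment. Xcl1, a chemokine of natural killer cells and other innate lymphocytes, averaged 966 ± 444 CPM in control and 299 ± 280 in expanded libraries (SD, n = 5 and 4; log2 fold change -1.84 ± 0.57, edgeR adjusted p = 0.671). In the Gata3-positive Cd3-positive T cells of the same 4 pairs it was also lower in 3 expanded libraries. Control first, these were 737 against 270 CPM on day 1 in round 2, 883 against 217 on day 2 in round 2 and 874 against 264 on day 4. On day 1 in round 1 it was higher, at 640 against 1083, and the arms were not tested in these cells. Csf2, the myeloid growth factor GM-CSF, averaged 148 ± 65.0 and 92.5 ± 114, and Tnfsf11, the osteoclast factor RANKL, had a log2 fold change of -0.97 ± 0.44. Calca, which encodes the neuropeptide CGRP, went the other way in 3 of 4 pairs, with 24.0 against 265 CPM and 290 against 1000 on day 1, 17.8 against 90.5 on day 2 in round 2 and 268 against 81.8 on day 4 (log2 fold change 1.25 ± 0.76, edgeR adjusted p = 0.868).

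Identity genes showed no common direction, with 17 of 25 tested, 10 positive, 7 negative and a median log2 fold change of 0.04. Rora (0.28 ± 0.19), Id2 (0.13 ± 0.19) and Icos (-0.07 ± 0.24) differed by less than 1.5 standard errors. Lmo4, a cofactor of transcription, was between 184 and 311 CPM in the control and between 333 and 437 in the 4 expanded libraries (log2 fold change 0.49 ± 0.23, edgeR adjusted p = 0.825). Cxcr6, a receptor for tissue homing, averaged 849 ± 149 and 516 ± 178 CPM (log2 fold change -0.77 ± 0.25, edgeR adjusted p = 0.746). The receptor list (23 of 44 tested, median -0.07), the activation list (43 of 51, 0.12) and the homing list (19 of 32, 0.05) also had no member past adjustment. The lists for proliferation (7 tested, median -0.52), interferon (4, -0.39), glycolysis (12, -0.16), heat shock (7, -0.24) and glucocorticoid response (7, -0.20) had none either. Among receptors, Ramp1, a subunit of the CGRP receptor, had a log2 fold change of 0.84 ± 0.26, and Il1rl1 one of 0.04 ± 0.55.

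Transcripts of other cells were also in these sums, and several differed between the arms. The sums of marker lists given here cover all expanded libraries, that with 9 cells included, unlike the fit. The summed level of 10 fibroblast markers ran from 1114 to 16504 CPM (median 5129) in the control and from 15.1 to 3768 (median 153) in the expanded libraries. That median of 153 is the value of the library with 9 cells. All 7 fibroblast markers tested had a negative log2 fold change, with a median of -3.25 and an unadjusted p under 0.05. The 11 natural killer and group 1 markers, of which Klra8 was at 0, summed to 718 to 2120 CPM (median 1591) in control and 303 to 1384 (median 407) in expanded libraries. Xcl1, given above as an effector gene, is 1 of these 11, so this sum is not separate from the Xcl1 difference. Gzmc, a granzyme gene chosen after its values were seen, averaged 4823 ± 1732 and 933 ± 1129 CPM in the 5 and 4 libraries (edgeR log2 fold change -2.81 ± 0.71, adjusted p = 0.492), while the expanded library with 9 cells had 7775. T cell markers overlapped, at 932 to 1485 and 1035 to 1615 CPM. The 7 neutrophil markers, of which Retnlg was at 0, went the other way without overlap, from 0 to 8.07 CPM in control and from 11.3 to 76.8 in expanded libraries. These sums rest on few UMIs, and none of the 7 genes could be tested. The 11.3 CPM of the expanded library of day 1 in round 1 was under the 16.9 CPM of 3 UMIs there. On day 2 in round 2 the expanded library had 30.2 CPM, where 3 UMIs make 45.3. The 9 macrophage markers ran from 39.8 to 1734 and from 11.3 to 3063 CPM, and the 10 keratinocyte markers outside the selection from 39.8 to 1422 and from 32.9 to 3735. Both lists were highest in the expanded library of day 4, which had the lowest Areg level. The part of these transcripts in the differences of Areg and Il5, and of those besides Xcl1 itself in that of Xcl1, was not tested.

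**Figure D3:**
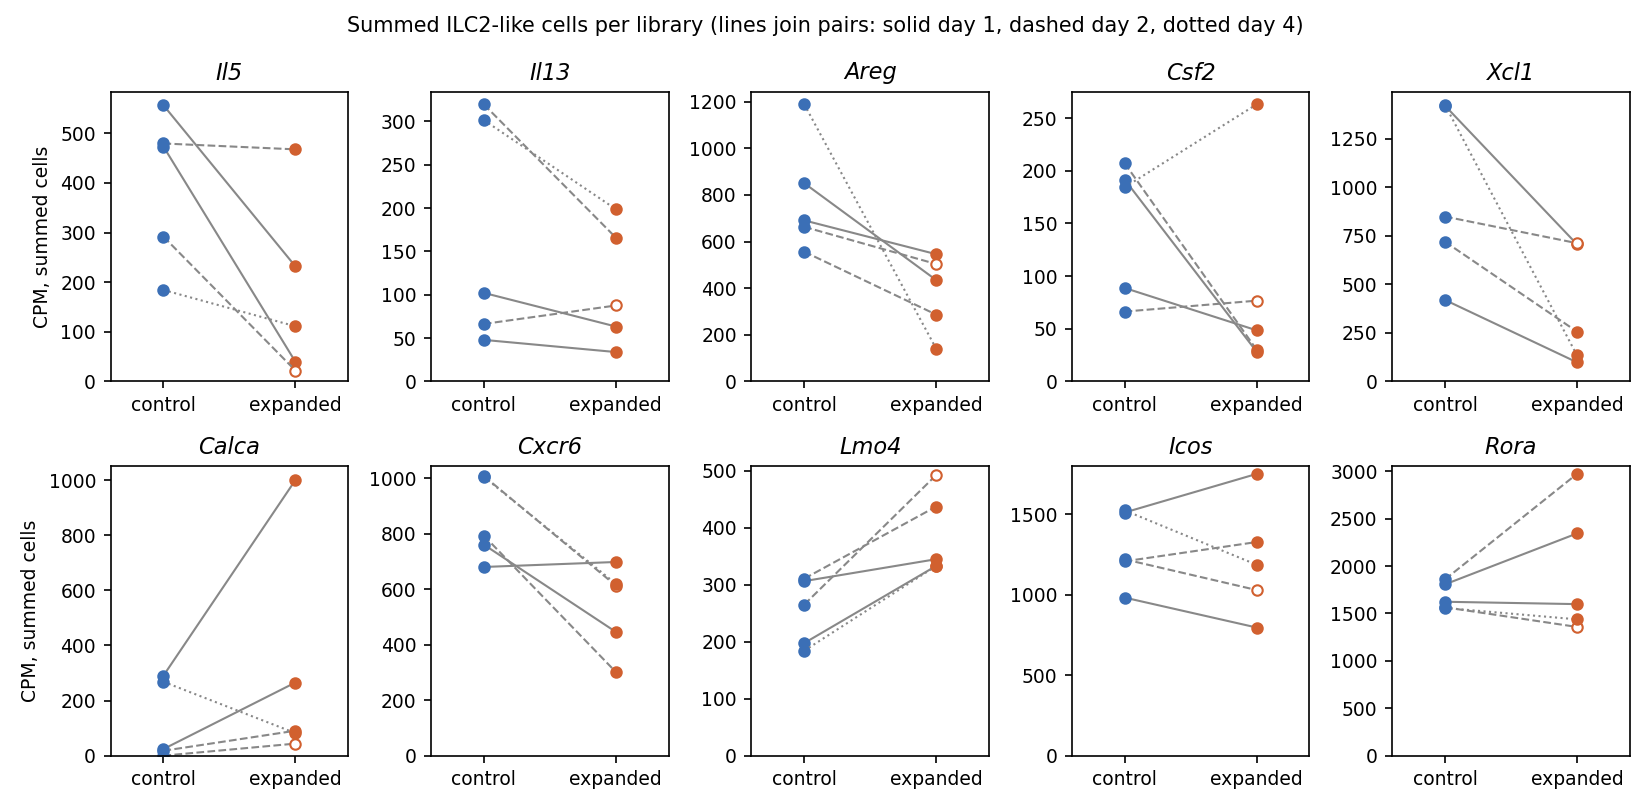
CPM of 10 genes in the summed ILC2-like cells of each library, control against expanded, with lines joining the libraries of 1 day and round (solid for day 1, dashed for day 2, dotted for day 4) and an open circle for the expanded library with 9 cells. Areg lies between 556 and 1189 CPM in control and between 140 and 546 in every expanded library, while Icos and Rora stay in overlapping ranges.

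Against the Gata3-positive Cd3-positive T cells of the same 9 libraries, the ILC2-like cells differed in 194 of 4083 genes outside the selection. Of these, 104 (2.55%) were higher and 90 (2.20%) lower in the ILC2-like cells in edgeR's quasi-likelihood test with a term for each library. Without the library term 41 were higher and 45 lower. T cell genes correlated with Cd3 were bound to be lower by the selection, so their direction is not independent of it. Lower genes accordingly included Trac, Trdc, Cd247, Trat1, Cd5, Cd6 and Tcrg-C1 (log2 fold changes from -3.91 to -2.80), while Trbc2 was lower by less (-0.76 ± 0.17, adjusted p = 0.0122) and Trbc1 had a log2 fold change of -0.17 (adjusted p = 0.621).

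Il5 was the leading type 2 product of the ILC2-like cells in this comparison. It averaged 315 ± 186 CPM in them and 76.0 ± 51.0 in the T cells of the same libraries (SD, n = 9), with a log2 fold change of 2.08 ± 0.32 (edgeR adjusted p = 0.000555), and was higher in 8 of 9 libraries. The exception was the expanded library of day 1 in round 1, with 39.5 CPM in the ILC2-like cells and 72.2 in the T cells. Csf2 was the other of 13 effector genes tested that passed (1.51 ± 0.34, edgeR adjusted p = 0.0117), and no effector gene was lower. The list's median was 0.25 beside -0.01 over all genes. Il13 (0.65 ± 0.32, edgeR adjusted p = 0.321), Areg (0.25 ± 0.19, 0.591) and Calca (1.49 ± 0.43, 0.0565) did not pass. Without the library term Csf2 did not pass either, with an edgeR adjusted p of 0.243.

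Kit (ENSMUSG00000005672, chr5:75574916-75656722, plus strand) had the largest log2 fold change among genes that were higher in every library, 1.99 ± 0.13 (edgeR adjusted p = 4.4e-08). It was between 251 and 650 CPM in the ILC2-like cells and between 51.4 and 179 in the T cells, without overlap. Hlf, a transcription factor of the PAR bZIP family, averaged 864 ± 223 and 309 ± 124 CPM (log2 fold change 1.54 ± 0.14, edgeR adjusted p = 1.49e-06). Bmp2, a secreted morphogen, had a log2 fold change of 1.59 ± 0.19, and the TNF family ligand Tnfsf14 one of 1.48 (edgeR adjusted p = 0.000324). Krt83, Jcad, Cysltr1, Lmo4, Pxdc1 and Irs2 completed the 10 leading genes, with log2 fold changes between 1.16 and 1.48. Cysltr1 encodes the leukotriene receptor through which lipid mediators reach ILC2.

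Of the 30 receptor genes tested, 9 were higher and 3 lower, with a list median of 0.17. Both chains of the IL-18 receptor were higher, Il18r1 by 0.78 ± 0.17 (edgeR adjusted p = 0.00762) and Il18rap by 0.81 ± 0.16 (0.00422) on the log2 scale. The call of Il18r1 was lost when cells that carried T cell transcripts were removed (0.68, edgeR adjusted p = 0.0626), and so was that of Ifnar1 (0.110). They lie beside the IL-33 receptor gene Il1rl1, which was lower in the ILC2-like cells. Il1rl1 (ENSMUSG00000026069, chr1:40429570-40465415, plus strand) averaged 104 ± 62.8 CPM in them and 220 ± 115 in the T cells and was lower in 8 of 9 libraries (log2 fold change -1.09 ± 0.29, edgeR adjusted p = 0.0360). That call was lost in 6 of the 9 fits that left out 1 library. The adjusted p rose past 0.05 without the control library of day 1 in round 2 (0.142), day 2 in round 2 (0.0970) or day 4 (0.0630). It also did so without the expanded library of day 1 in round 1 (0.0592), day 1 in round 2 (0.0642) or day 4 (0.0637), and without the library term (0.186). Kit, Icos (0.40), Ramp1 (0.97), Cysltr1 (1.36), the checkpoint receptor Pdcd1 (1.30) and Ifnar1 (0.54) were among the other receptors that were higher. Ctla4 (-2.72) and Tnfrsf4 (-3.09), which regulatory T cells express, were lower along with Foxp3 (-2.68).

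The identity list had 6 of 17 tested genes higher and 1, Il1rl1, lower, with a median of 0.09. The higher ones were Rora (0.74), Id2 (0.49), Lmo4 (1.27), Ikzf3 (0.77), Cxcr6 (0.89) and Icos on the log2 scale. Rora averaged 1862 CPM in the ILC2-like cells and 1124 in the T cells and was higher in 9 of 9 libraries. In the activation list 4 of 46 were higher, among them the NF-kappaB gene Nfkb1 (0.74, edgeR adjusted p = 0.000263) and Bhlhe40 (0.80, 0.00422), and Irf4 was lower (-1.07, 0.0194). Homing had Cxcr6 higher and the integrin gene Itgb7 lower (-0.55) of 19 tested. The interferon genes Ifi27l2a and Gbp2 were lower (-2.78 and -2.07) of 9 tested, and the chaperone genes Hsp90aa1, Hsp90ab1 and Hspa8 were lower by small amounts (-0.45 to -0.33) of 9. No gene of proliferation, glycolysis or glucocorticoid response passed. The calls of Id2, Icos, Il18r1, Il18rap, Ramp1, Pdcd1, Ifnar1, Itgb7, Krt83 and the 3 chaperone genes were lost when the library term was left out, with edgeR adjusted p from 0.0579 to 0.527. The calls of Ifnar1, Itgb7, Hspa8 and Hsp90ab1 were also lost without each of 6 or more single libraries, and that of Irf4 without the control library of day 2 in round 2 (0.0518) or the expanded library of day 1 in round 2 (0.0571).

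Against the Ncr1-positive Cd3-negative cells, the comparison could use 5 libraries with at least 10 cells of both classes. The Ncr1-positive cells did not have to carry Gata3, nor Il7r or Thy1. Genes that go with these were therefore favoured in the ILC2-like cells by the selection, and their direction is not independent of it. Of 2451 genes tested, 97 (3.96%) were higher and 130 (5.30%) lower in the ILC2-like cells. Il5 had 571 UMIs in the ILC2-like cells of these libraries and 1 in the Ncr1-positive cells, a pooled ratio of 247 with an exact 95% counting interval from 44.1 to 9765 (edgeR adjusted p = 2.8e-05). Il13 averaged 197 ± 115 and 15.3 ± 21.1 CPM (SD, n = 5), with a log2 fold change of 3.57 ± 0.42 (edgeR adjusted p = 0.000431), and was higher in 5 of 5 libraries. Hlf averaged 948 ± 267 and 19.7 ± 32.5 CPM (edgeR adjusted p = 0.000148). Icos averaged 1436 ± 238 and 128 ± 109 CPM (log2 fold change 3.63 ± 0.36, edgeR adjusted p = 0.000236), without overlap.

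In the identity list 8 of 16 tested genes were higher and none lower in this comparison, with a median of 0.97 beside 0.02 over all genes. The Gata3 criterion and that of Il7r or Thy1 may help to set this direction, so it does not test the label. The 8 were Icos, the lymphoid factors Bcl11b (3.62) and Ikzf3 (3.18), Maf (1.97), Rora (1.55), Id2 (0.89), Lmo4 (1.80) and Cxcr6 (2.44), values on the log2 scale. Of 9 effector genes, Il5 and Il13 were higher and the chemokine genes Xcl1 (-3.12, edgeR adjusted p = 0.00262) and Ccl5 (-4.86, 2.8e-05) lower. Receptors had 5 of 19 higher, among them Icos, Pdcd1 (2.92), the adrenomedullin receptor subunit Ramp3 (2.22) and the glucocorticoid receptor Nr3c1 (1.88), and Il2rb was lower (-1.01). Areg (0.67 ± 0.38, edgeR adjusted p = 0.362), Kit (0.60 ± 0.23, 0.161) and Il18r1 (0.42 ± 0.23, 0.344) did not pass. Kit was in 51.9% of the Ncr1-positive cells, 69.6% of the ILC2-like cells and 23.8% of the T cells.

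Genes lower in the ILC2-like cells included Prf1 and Gzmc. Prf1, the pore-forming protein perforin, averaged 23.1 ± 23.5 CPM in the ILC2-like cells and 229 ± 41.5 in the Ncr1-positive cells (SD, n = 5; log2 fold change -3.63 ± 0.42, edgeR adjusted p = 0.000431). Gzmc averaged 2721 ± 2413 and 16440 ± 5460 CPM (-3.06 ± 0.45, edgeR adjusted p = 0.00182), so it was at a high level in both. All 5 natural killer and group 1 markers tested were lower, a direction that the Ncr1 criterion helps to set. Homing genes split, with Cd44 (1.12), Cxcr4 (1.28) and Cxcr6 higher and Ccr2 (-1.50), Itgb1 (-1.30) and Selplg (-1.01) lower of 18. Glycolysis had Pkm (0.78) and Hif1a (1.30) higher of 11. The number of called genes fell from 227 to 122 without the expanded library of day 1 in round 2. The calls of Cxcr4, Hif1a and Selplg were lost without that library (edgeR adjusted p 0.0566, 0.0695 and 0.0639). The calls of Cxcr4 and Hif1a were also lost without the control library of day 2 in round 2 (0.0523 and 0.0716), and that of Cxcr4 without that of day 4 (0.0528). Without the library term the calls of Id2 (0.119), Il2rb (0.134) and Cxcr4 (0.0579) were lost.

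**Figure D4:**
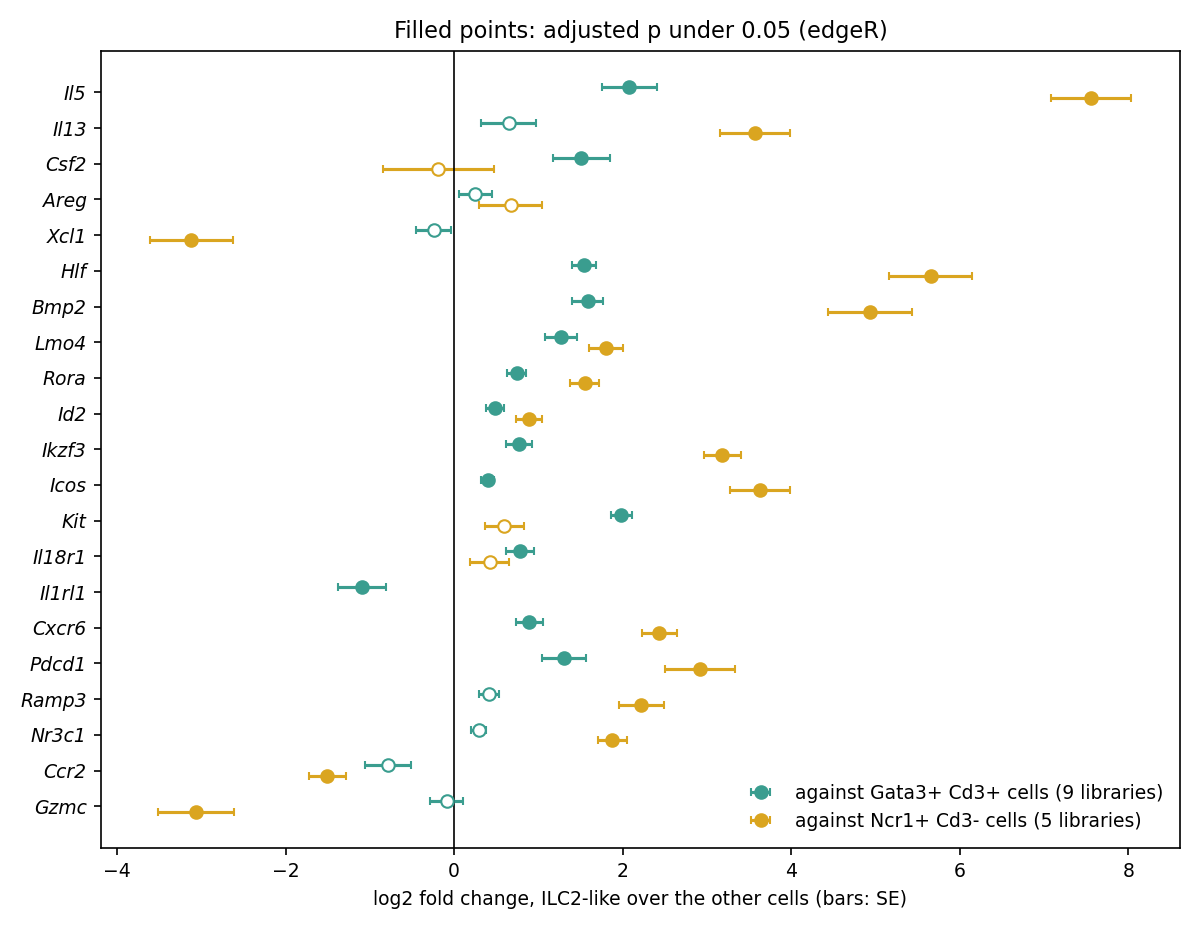
Fitted log2 fold change with its standard error of genes in ILC2-like cells against Gata3-positive Cd3-positive cells of 9 libraries and against Ncr1-positive Cd3-negative cells of 5 libraries, filled where the edgeR adjusted p is under 0.05. Kit lies at 1.99 against T cells and at 0.60, open, against Ncr1-positive cells, while Icos lies at 0.40 and 3.63, and the Il5 point against Ncr1-positive cells rests on 1 UMI in those cells.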

How the data were processed

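The deposited matrices hold raw counts of UMIs for 32285 genes in each barcode. The authors used Cell Ranger 6.1.2 and mm10, per the submitters' processing notes. The annotation version is not given in the sources used here. Gene positions were taken from GENCODE M21 and sequences from RefSeq, both on GRCm38. The cells and gene lists were chosen with earlier results of these data known.

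Counts of the selected cells were summed per library. The sums had between 59700 and 742008 UMIs, so 3 UMIs correspond to 50.3 CPM in the smallest and 4.04 in the largest. Genes were filtered by filterByExpr, normalised by TMM and fitted with edgeR 4.0.16 (R 4.3.3), with Benjamini-Hochberg adjustment over all genes tested and a threshold of 0.05. The fit between arms had the day as covariate, and the fits between cell classes had the library. Libraries with fewer than 10 cells of a class were left out, which removed the expanded library of day 2 in round 1 (9 cells). Genes of the selection were in the fits but are not read as results. Shares were compared by permutation tests written for the purpose in Python, exact for libraries and within a round, with 100000 resamples over all mice. Wilson intervals were computed with scipy 1.17.1. Each library is a pool, so p-values of the arms over libraries measure the spread between these pools. Mice share a reaction within an arm and round, so p-values over mice measure the spread between mice inside reactions. Within a day and round they cannot tell the arm from the reaction. The fits between cell classes measure how the difference of the classes varies between libraries.

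Hashtags were assigned by HTODemux (Seurat 5.3.0, quantile 0.99). Doublets were called by Scrublet (scanpy 1.11.5, Python 3.11.15) and by hashtags, kept, and removed as an alternative. In data simulated from these libraries, the fit between arms recovered 43.6% of genes changed by 1 and 96.9% of those changed by 2 on the log2 scale among 2787 genes. The fit against T cells recovered 94.7% and 100% of 4090, and that against Ncr1-positive cells 76.6% and 100% of 2456. In these simulations every gene of a fit had the same spread between libraries (dispersion 0.0769 for the arms), with no effect of day, pair or library. The recovered shares therefore do not hold for genes that vary more. Control and expanded libraries of a pair share a day and round per the labels, and deviations from the arm means correlated by 0.227, 0.363, 0.0217 and 0.0871 in the 4 pairs. Named genes were those of the identity and effector lists, other list genes that passed, and the 10 largest changes in each direction that passed and had 1 direction in every library. Alternatives covered scaling (RLE, DESeq2 1.42.0), filters, thinning, doublets, the block and each library left out.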

Additional observations from a re-analysis of the deposited data

Results flagged for a closer look

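Of 64 groups of values tested for a sample far from the others, 6 held one, and chance alone gives about 1 in 20. The share of ILC2-like cells among kept cells was 2.08% in the expanded library of day 1 in round 2, far above the other 4 expanded libraries. Control mouse 1 of day 4 had 1.20% of its leukocytes ILC2-like, above the other 3 control mice of that day. In the ILC2-like cells of expanded libraries, Csf2 stood apart at 263 CPM on day 4, and Ahr, a receptor for environmental ligands, at 256 CPM and Lmo4 at 437 CPM in day 2 of round 2. In control libraries Nfil3, a transcription factor of innate lymphoid development, stood apart at 251 CPM on day 4.

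The libraries of the arms differed in opposite directions by day. The mean difference of expanded minus control in the share of leukocytes was 2.25 percentage points over the 2 pairs of day 1 and -1.61 over the 2 pairs of day 2. In the share of kept cells it was 0.765 points on day 1 and -0.361 on day 2. The difference between days was not tested over libraries. Over the hashed mice it had a permutation p of 0.132, with 2.96 points between the days. On day 2 in round 2 the mean share of the mice was nearly level, at 2.60% in control and 2.61% in expanded mice.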

How the results depend on the processing

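The arm difference in the share of leukocytes turned to -0.0303 percentage points when cells were thinned before selection and ran from -0.452 to 0.996 with single libraries left out. The share of kept cells ran from -0.0516 to 0.401, and the number per 100 Cd3-positive cells from -4.95 to -1.59. Over mice the difference was -2.06 on day 2 in round 1 and -1.95 per 100 Cd3-positive cells, the latter an alternative added after seeing the data. For Areg-positive cells it was -6.02 points unthinned, -15.4 with the library of 9 cells, -17.2 with the day and round pair as replicate block (both also added) and -20.5 to -13.5 with single libraries left out. For Il1rl1 the same settings gave 6.50, 2.49, 1.72 and -4.02 to 2.65. Il5 ran from -14.3 to -5.74 and Il13 from -8.10 to -3.41, and both passed (-13.8 and -8.10, adjusted p = 0.0381 in the permutation test) without the control library of day 4.

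Between arms, 0 genes passed in the reported fit. With no filter 92 did, with at least 20 cells per library 1, with thinned cells 2, with the day and round pair as replicate block 7, and with single libraries left out 0 to 18 (2 without the expanded library of day 4). Against T cells 194 genes passed, 86 with no replicate block, 516 with no filter, 136 to 205 with single libraries left out, and 130 without the cells that carried T cell transcripts (added after seeing the data). Against Ncr1-positive cells the 227 calls became 502 with no filter and 122 to 235 with single libraries left out (150 without the control library of day 2 in round 2). Except where the setting itself changes which genes or samples enter, the cause was not tested. Named genes called against T cells (45) lost their call in 70 of 572 fits and those against Ncr1-positive cells (39) in 21 of 307, with no sign reversed. The fits with cells lacking all T cell receptor constant UMIs could not be made, since 43 cells remained. The depth limits all results: a gene listed at 0 in a small library may be expressed.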
